A study of Drosophila melanogaster with 19 samples.

Results

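The genes y, sn, f, ct, N, sd, Bx, dx, lz and dy are 10 X-linked genes of Drosophila melanogaster. Their mutations change the wing, the bristles or the colour of the body, or for lz the eye, which made them visible markers of classical fly genetics. They were listed by name, with earlier results of these data known, and they are 10 of the 2197 X-linked protein-coding genes of the annotation. Male flies have a single X chromosome, and the dosage compensation complex binds it and raises the transcription of its genes. MSL2 is the male-specific RING-finger protein of that complex, MSL1 is the scaffold on which it assembles, and it is known to enter the X at strong sites and to be found over the bodies of transcribed genes beyond them.

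The data are peak lists from chromatin immunoprecipitation sequencing (ChIP-seq) of MSL2 in whole adult males. The first list comes from males of genotype M1[wt] and the second from wt males, both of the Oregon-R strain and 3 days old. They are 2 of the 19 samples of the series, which concerns the N-terminus of MSL1, and each group holds 1 listed sample. The labels used here do not spell out what the M1[wt] genotype carries, and the flies were ground whole, so the tissue in which a site is bound cannot be told. Both lists are named for a male preimmune rabbit control.

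The M1[wt] list held 3944 peaks, 1595 of them on the X, and the wt list held 3799, 1615 of them on the X. The strength of a peak is its −log10 p as the authors gave it, and every peak carries such a value from each of 2 calls, of which the lower is the strength. The median strength of X peaks was 36.6 in the M1[wt] list and 22.2 in the wt list, and the lowest were 9.81 and 7.72. Read depth is unknown here and strength grows with it, so strengths are compared within a list and not between lists. Genes were counted as having a peak where at least 1 summit fell between points 1000 bases beyond either end. With 1 listed sample per group there is no replicate check of any difference between the lists.

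MSL2 peaks lay at most of the marker genes in both lists, and y had none in either. In M1[wt] males 7 of the 10 genes had a peak (70.0%, exact Clopper-Pearson 95% interval 34.8 to 93.3%), against 52.0% of all X-linked protein-coding genes. In wt males 8 of 10 had one (80.0%, 44.4 to 97.5%), against 53.7%. The 10 genes were picked by name and not drawn at random, so the intervals are no test against these shares. The genes sn, f, N, dx, sd and Bx had a peak in both lists, 6 of 10 against 46.1% of X-linked genes. The gene ct had one in M1[wt] males alone, and lz and dy in wt males alone. The marker genes are long, with a median of 22946 bases against 2520 for X-linked genes. Among the 663 X-linked genes between 4577 and 70432 bases, the range of the 10, a peak was present at 69.7% in M1[wt] males, at 69.5% in wt males and at 63.3% in both. The counts for the marker genes lie near these shares, so they are not a result about these genes. Where the peaks of each gene lie, and how strong they are, is given gene by gene.

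**Figure D1:**
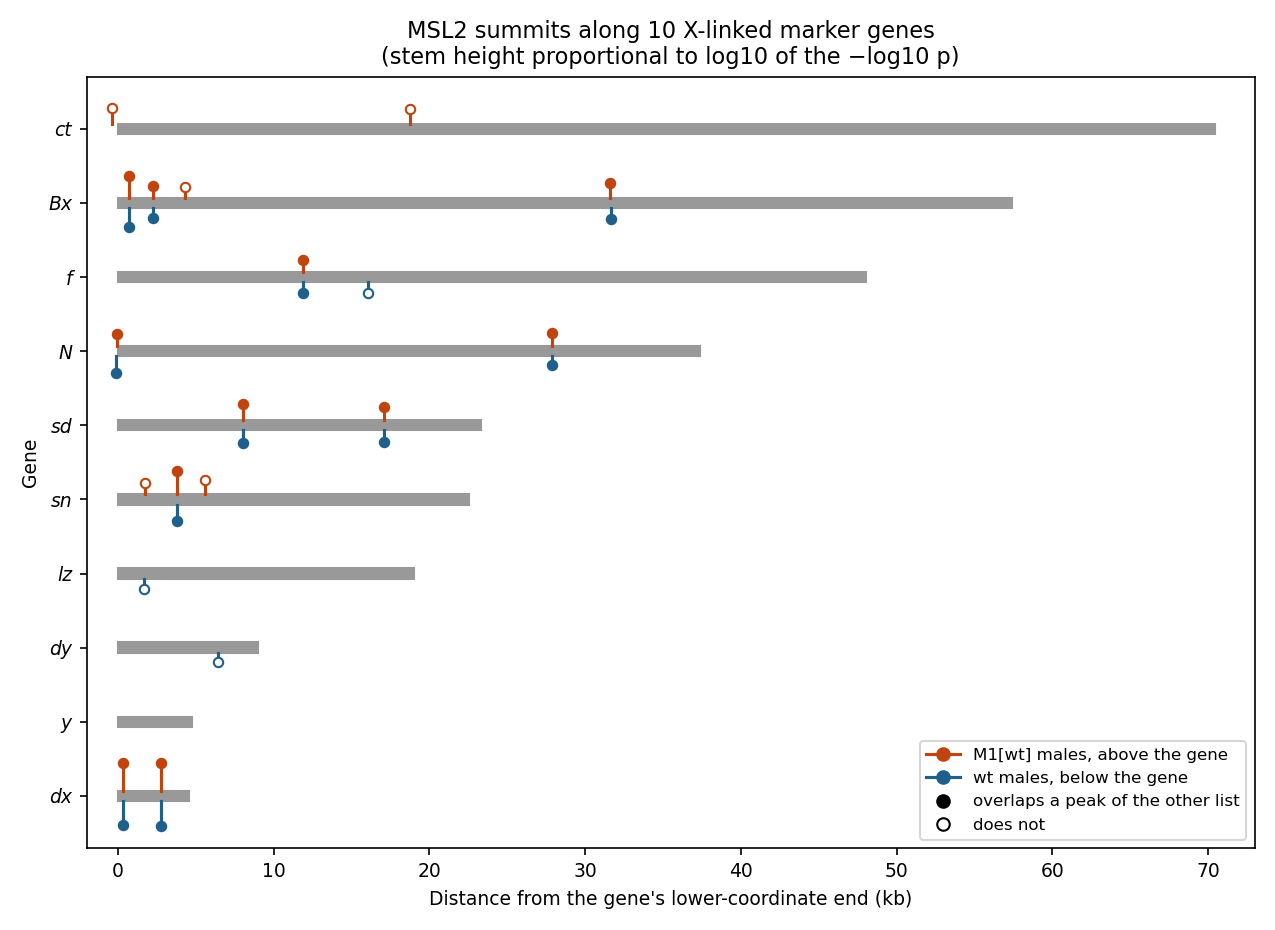
MSL2 summits along the 10 marker genes, drawn to scale in kb from the lower-coordinate end of each gene, with M1[wt] males above and wt males below the grey gene bar. Stem height is proportional to the log10 of the −log10 p, filled circles are peaks that overlap a peak of the other list and open circles are peaks that do not. Summits recur at the same places in both lists at dx, sd, N and Bx, and y has none.

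The gene y (X:356509-361245) encodes a secreted protein needed for black pigment, and it was the only one of the 10 genes without a peak in either list. The nearest summit lay 80241 bases away in M1[wt] males, at a peak in ewg (strength 43.2), and 103311 bases away in wt males, at a peak in G9a (9.52). Only 3.23% of X-linked genes were as far or farther from a summit in the M1[wt] list and 2.46% in the wt list. On the other side the nearest peak was the same in both lists, in ebo, 111635 bases away in M1[wt] males (1252 there) and 111631 bases in wt males (1080).

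The stretch without a summit around y spanned 196612 bases in M1[wt] males and 219678 bases in wt males. It was the 10th longest of the 1594 stretches between neighbouring X summits in the M1[wt] list and the 11th of 1614 in the wt list, where the median stretches were 3849 and 3294 bases. Of the protein-coding genes, 14 lay whole within it in M1[wt] males and 19 in wt males. They include ac, sc, l(1)sc and ase, the proneural genes of the achaete-scute complex that specify bristle precursors. Thus y and its bristle-gene neighbours lay together in one of the longest parts of the X without an MSL2 peak.

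The bristle genes sn and f both had peaks. The gene sn (X:7964024-7986601) encodes fascin, which bundles the actin filaments of growing bristles. In M1[wt] males it had 3 summits, all within 24.7% of its length from the lower-coordinate end, with strengths of 15.1 at X:7965562-7965957, 267 at X:7967164-7968355 and 35.0 at X:7969304-7969806. In wt males it had 1, of strength 60.0, at X:7967213-7968271. That summit lay 8 bases from the strongest M1[wt] one, so the main site of the gene was the same in both lists.

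The 2 calls gave this main site 267 and 342 in M1[wt] males, and 85.7 and 60.0 in wt males. It ranked 229 among X peaks of the M1[wt] list and 376 among those of the wt list. The weaker M1[wt] peaks on either side overlapped no wt peak. The main summit also lies in sws, a gene for a neuronal lysophospholipase, which overlaps sn over 4213 bases, as does the M1[wt] summit of strength 15.1. A peak there cannot be given to either gene alone. The summit of strength 35.0 lies in sn alone.

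The gene f (X:17232942-17280964) encodes forked, another protein of the bristle actin bundles, and its peaks were weak and lay in genes nested within it. M1[wt] males had 1 peak, of strength 18.1 at X:17244624-17245041, and wt males had 15.3 at X:17244591-17244985, with summits 28 bases apart, both in the nested gene CG8915. A second wt peak of 14 (X:17248621-17249480) lay in the nested CG8675 and overlapped no M1[wt] peak. No summit in either list lay in f outside a nested gene. Just beyond f, 4886 bases from it in M1[wt] males and 4887 in wt males, stood a far stronger shared peak in Fim and CG5445 (479 in M1[wt] males, 287 in wt males).

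The Notch pathway genes N and dx both had 2 peaks in each list, and those of dx were far the stronger. N (X:3134870-3172221) encodes the Notch receptor, which sets the wing margin, the width of the veins and the spacing of bristles. Its peaks lay at the same places in both lists. The first summit lay just outside its lower-coordinate end, by 77 bases in M1[wt] males (X:3134645-3135229) and 99 bases in wt males (X:3134568-3135205). The other lay 74.7% of the way along the gene in both (X:3162176-3163082 in M1[wt] males and X:3162612-3162913 in wt males, summits 7 bases apart).

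The order of strength of these N sites differed between the lists. In M1[wt] males the inner site was the stronger, at 25.8 (calls of 25.8 and 26.4) against 17.3 at the end of the gene (17.3 and 23.9). In wt males the end was the stronger, at 53.4 (95.6 and 53.4) against 8.40 inside (10.4 and 8.40). The inner wt peak ranked 1583 of the 1615 X peaks of its list, where the lowest strength was 7.72. The match of the inner site between the lists thus rests on a weak wt peak, as does the order in wt males. Each call showed the order of its own list. Whether the order differs between the lines was not tested, since each has 1 listed sample. The end summit is also within 1000 bases of kirre, an immunoglobulin-family gene of muscle founder cells.

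Below N lay one of the longest empty stretches of the X. The next summit down was 395431 bases from the end summit in M1[wt] males, the 3rd longest stretch of the X, and 389959 bases in wt males, the 4th longest. N was also far from any of the 200 strongest X peaks, 400272 bases in M1[wt] males and 310213 bases in wt males, where the median distances over X-linked genes were 19619 and 19493 bases. With y it was the farthest of the 10 genes from such a peak in both lists.

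The gene dx (X:6533999-6538575) encodes Deltex, a ubiquitin ligase that binds the intracellular part of Notch, and it carried the strongest peaks of the 10 genes in both lists. In M1[wt] males its 2 peaks reached 804 (X:6533911-6535001, calls of 804 and 880) and 809 (X:6535497-6538219, calls of 809 and 972). In wt males they reached 365 (X:6533925-6534968, calls of 462 and 365) and 467 (X:6535509-6537966, calls of 684 and 467). They ranked 103 and 102 among the X peaks of the M1[wt] list and 117 and 94 among those of the wt list. These 2 peaks are the only ones of the 10 genes within the 200 strongest X peaks of either list.

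The dx summits lay 7 and 23 bases apart between the lists. Peak intervals covered 81.4% of dx in M1[wt] males and 74.9% in wt males, against at most 9.50% and 7.15% of any other of the 10 genes, and dx is the shortest of them. The first dx peak is within 1000 bases of RpL7A, a ribosomal protein gene beside it, while its summit lies in dx. A further shared peak stood just outside the 1000 bases, 1061 bases from dx in M1[wt] males (strength 157) and 1057 bases in wt males (18.4).

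**Figure D2:**
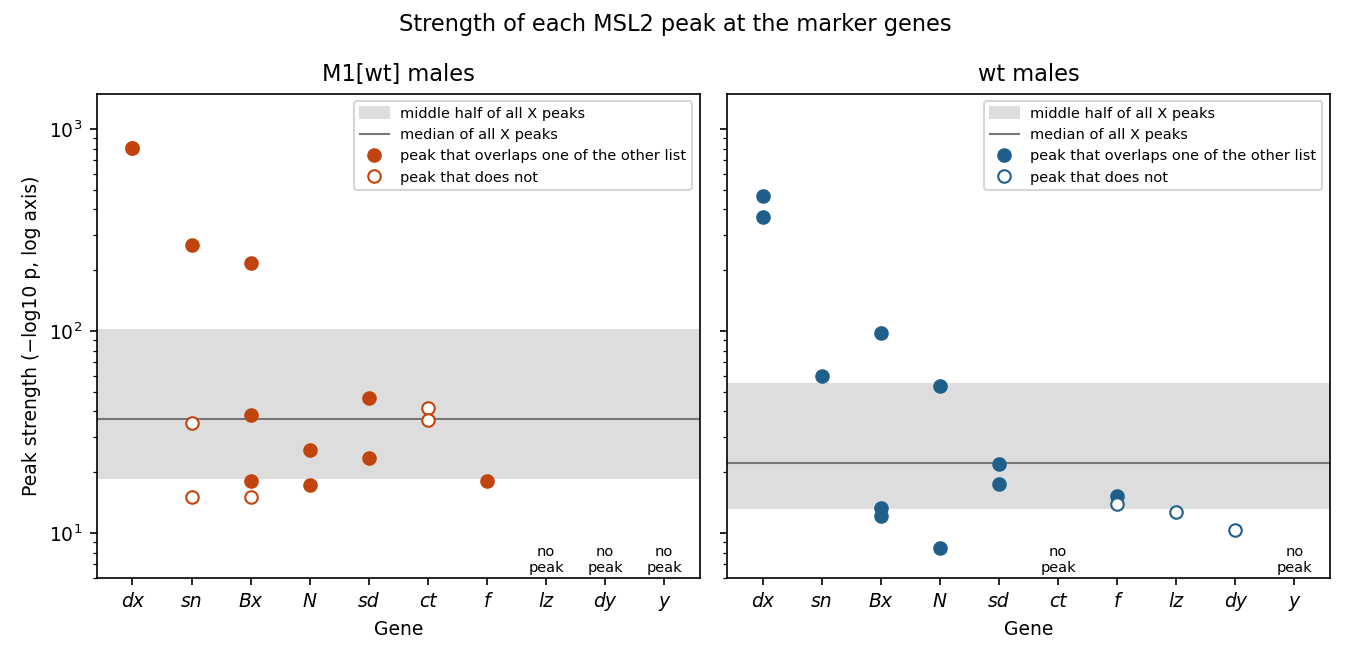
Strength (−log10 p, log axis) of each peak at the 10 marker genes in M1[wt] males and wt males, with the median and quartiles of all X peaks of that list in grey. The dx peaks stand highest in both lists, at 804 and 809 in M1[wt] males and 365 and 467 in wt males, and most others lie near or below the median.

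Among the genes of transcription factors and cofactors, sd and Bx were bound at matching sites in both lists, while ct and lz were each bound in one. The gene sd (X:15804370-15827682) encodes the TEAD factor Scalloped, which acts with Vestigial to make the wing and with Yorkie in growth control. Its first site had 46.6 in M1[wt] males (X:15811674-15812547) and 22.0 in wt males (X:15811668-15812522), with the summit at the same base. Its second site had 23.6 in M1[wt] males (X:15821080-15821961) and 17.5 in wt males (X:15821077-15821887), with summits 20 bases apart. The first site was the stronger in both lists, and neither lay in another gene. In wt males the first call gave 39.1 at the first site and 17.5 at the second, while the second call gave 22.0 and 24.9, so the calls put the sites in opposite orders.

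Bx (X:18515428-18572809) encodes a LIM-only protein that competes with Apterous for its cofactor Chip, and Beadex mutations notch the wing margin. It had the most peaks of the 10 genes, 4 in M1[wt] males and 3 in wt males. The strongest lay near its lower-coordinate end, with 218 in M1[wt] males (X:18515327-18516447) and 97.6 in wt males (X:18515288-18516375), summits 5 bases apart. Next to it lay weaker sites of 18.1 (M1[wt] males) and 12.1 (wt males), with summits 28 bases apart, and of 15.1 in M1[wt] males alone. All of these summits also lie in HisRS (X:18515428-18520445), a histidyl-tRNA synthetase gene that overlaps Bx over its whole 5018 bases and shares its lower-coordinate end.

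Only one Bx site lay outside HisRS. It stood 55.1% along the gene in M1[wt] males (38.4, X:18546847-18547245) and 55.2% in wt males (13.3, X:18546913-18547249), with summits 69 bases apart, the widest gap of any shared site of the 10 genes. Beyond it the X had no summit for 89458 bases in M1[wt] males and 89383 in wt males, up to the peak in Rip11 that ranked 3 in the M1[wt] list and 5 in the wt list.

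The gene ct (X:7608428-7678859), the longest of the 10, encodes the homeodomain protein Cut of the wing margin and of external sense organs. In M1[wt] males it had a summit 362 bases outside its lower-coordinate end (41.5, X:7607945-7608438) and one 26.6% along the gene (36.1, X:7626973-7627482). Wt males had none, and the nearest wt summit lay 3800 bases from the gene. That wt peak, of strength 12.3, overlapped an M1[wt] peak of 136 with a summit 17 bases away, so the closest site to ct in the wt list was present in both. The stretch around ct without a wt summit spanned 87281 bases.

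The gene lz (X:9284649-9303636) encodes the Runx factor Lozenge of eye, antennal and blood cell development. Wt males had 1 peak there (12.7, X:9286175-9286509), and it overlapped no M1[wt] peak. The nearest M1[wt] summit lay 1905 bases outside the gene (18.3), and a window of 2000 bases would count it. The gene dy (X:11769769-11778784) encodes a zona pellucida domain protein that shapes wing cells. It likewise had 1 peak in wt males (10.4, X:11776099-11776358) and none in M1[wt] males, where the nearest summit lay 11504 bases away (27.1). The wt peaks at lz and dy ranked 1260 and 1436 of the 1615 X peaks of their list. They had a global irreproducible discovery rate (IDR, the estimated share of peaks that do not repeat between calls) above 0.01. The inner wt peak at N also had a global IDR above 0.01. The wt peaks at lz and dy thus stood in the weaker part of their list, while the M1[wt] peaks at ct, ranked 734 and 801, stood near the median of theirs. Where a list shows nothing at a gene, no peak passed the authors' threshold, which gives no value for the binding there.

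Over the 10 genes there were 16 peaks in M1[wt] males and 14 in wt males. Of these, 11 in M1[wt] males (68.8%, against 72.8% of all X peaks) and 11 in wt males (78.6%, against 75.4%) overlapped a peak of the other list by at least 1 base. The summits of the 11 pairs lay a median of 20 bases apart, against 20 bases for all overlapping X peaks of the M1[wt] list and 22 for those of the wt list. The 5 peaks of M1[wt] males without a counterpart, at sn, ct and Bx, had strengths of 15.1 to 41.5, and the 3 of wt males, at f, dy and lz, had 10.4 to 14. The strongest peak of each gene with peaks in both lists was among the shared ones. Over all 10 genes the median strength was 35.5 in M1[wt] males, against 36.6 for all X peaks, and 16.4 in wt males, against 22.2. Peaks at these genes were shared about as often as X peaks at large.

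The first call was the lower one at 12 of the 16 peaks in M1[wt] males where it was for 77.6% of all X peaks, and at 2 of the 14 in wt males, where it was for 20.6%. The summits of the calls lay a median of 16.5 bases apart in M1[wt] males and 21.5 in wt males, and at most 47 and 80.

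Most summits lay inside the marker genes and away from their ends. Of the 16 M1[wt] summits 14 lay inside the marker gene, and of the 14 wt summits 13 did. The exceptions are the end sites of N and, in M1[wt] males, of ct. Only summits in a gene or within 1000 bases of it were taken, so a high share inside long genes follows largely from that rule. Over the whole X, 87.8% of summits in each list lay inside some protein-coding gene. That share has no such rule and cannot be set against these counts. Within 500 bases of the start or end of the marker gene itself lay 3 summits in M1[wt] males, at N, dx and ct, and 2 in wt males, at N and dx. Counting the ends of any protein-coding gene, 5 did in M1[wt] males and 4 in wt males, against 32.6% and 36.1% of all X summits. Neither strand nor exon positions entered these counts, so a summit near an end may be at the start of transcription or at its close, and may lie in an exon or an intron.

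Many of these summits fell where genes overlap. Of the 14 M1[wt] summits inside a marker gene 6 also lay in another protein-coding gene, and of the 13 wt summits 5 did, at sn, f and Bx. Over the whole X, 7.36% of summits inside a gene in M1[wt] males and 6.84% in wt males were held by 2 or more genes. The marker genes are longer than most X-linked genes and no length-matched share was computed, so whether they differ from the X was not tested. When only summits held by no other protein-coding gene are counted, a rule added after the data were seen, 6 genes had a peak in M1[wt] males (sn, N, dx, ct, sd and Bx) and 6 in wt males (dy, N, dx, sd, Bx and lz). Under this rule N, dx, sd and Bx thus had a peak in both lists. The share of X-linked genes with a peak under this rule was not computed, so whether the counts of 6 are usual was not tested. The end summit of N, which the rule keeps, lies outside N and within 1000 bases of kirre, so it cannot be given to N alone.

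**Figure D3:**
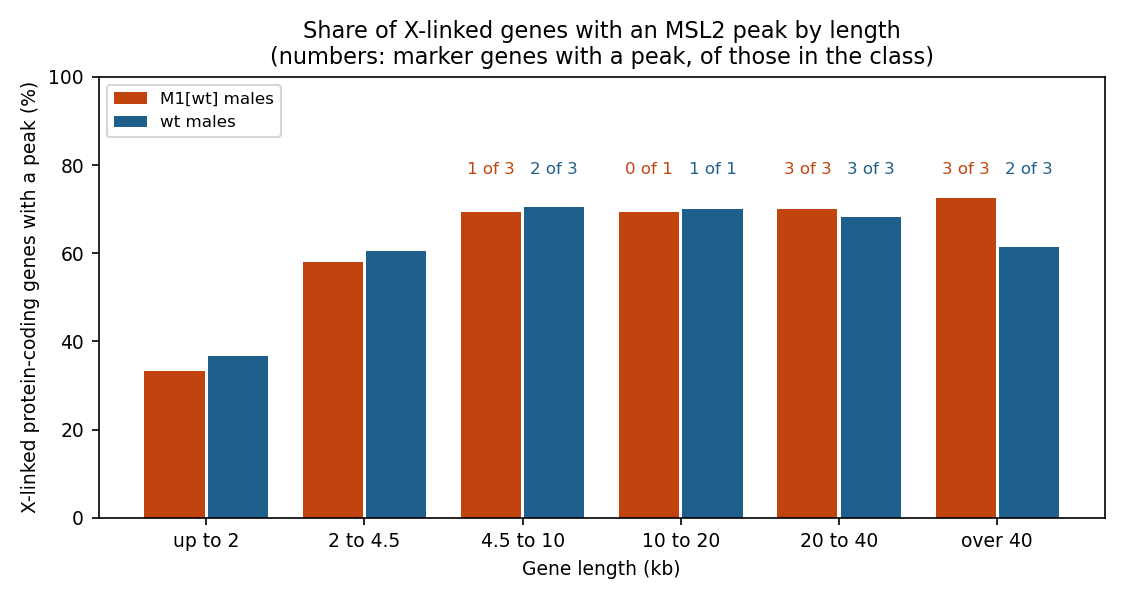
Share of X-linked protein-coding genes with an MSL2 peak (%), by gene length in kb, in M1[wt] males (left bar) and wt males (right bar). Numbers above the bars give how many marker genes of that length class had a peak. The share is lower for genes up to 2 kb (33.4% in M1[wt] males and 36.8% in wt males) and near 70% for most longer classes.

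Short X-linked genes had a peak less often than long ones. It was 33.4% in M1[wt] males and 36.8% in wt males for genes up to 2000 bases, and 58.0% and 60.5% from 2000 to 4500 bases. For genes of 20000 to 40000 bases, the class of sn, N and sd, it was 70.1% in M1[wt] males and 68.2% in wt males, and all 3 had a peak in both lists. For the 91 genes over 40000 bases, the class of f, ct and Bx, it was 72.5% in M1[wt] males and 61.5% in wt males, with means of 2.46 and 1.80 summits per gene. Bx had 4 summits in M1[wt] males and 3 in wt males, f had 1 and 2, and ct had 2 and 0.

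**Figure D4:**
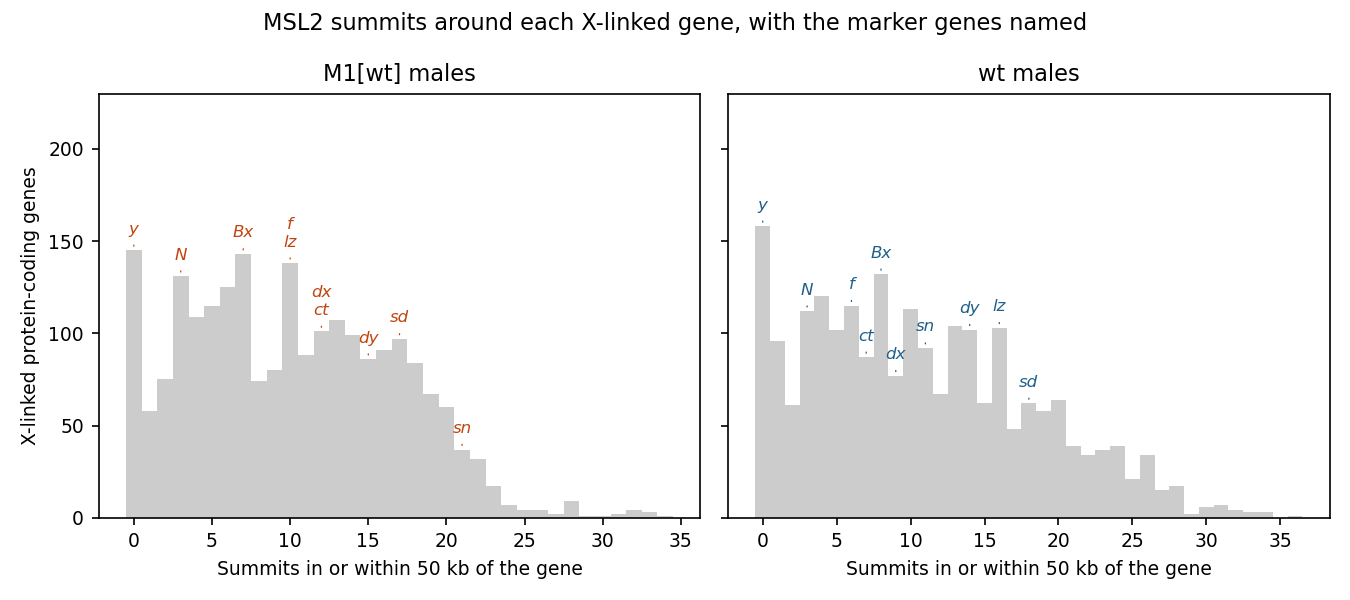
Number of MSL2 summits in or within 50 kb of each X-linked protein-coding gene, as a histogram over genes, for M1[wt] males (left) and wt males (right), with the marker genes named at their own counts. The genes y and N stand at the low end in both lists with 0 and 3 summits, and sd at the high end with 17 and 18.

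The neighbourhoods of the 10 genes ranged from empty to crowded. Within 50 kb y had 0 summits in both lists, as did 6.60% of X-linked genes in M1[wt] males and 7.19% in wt males. N had 3 in both lists, against a median of 10 over X-linked genes in each. The gene sd had 17 in M1[wt] males and 18 in wt males. The gene sn had 21 in M1[wt] males and 11 in wt males, and lz had 10 in M1[wt] males and 16 in wt males. Of the genes without a summit in M1[wt] males, lz and dy had 10 and 15 summits within 50 kb there. Within 10 kb lz had 1 and dy had 0, against a median of 3 over X-linked genes. The stretches without an M1[wt] summit around them spanned 49381 bases at lz and 60338 at dy, ranks 123 and 91 of 1594. Few or no summits thus lay close to lz and dy, while the region within 50 kb was not empty as it was at y.

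Other X-linked genes used as visible markers were looked up in the same way. Of 28, 13 had a peak in M1[wt] males, 14 in wt males and 10 in both. The 28 include kirre, whose strongest peak in each list is the end peak of N, so that peak is counted for both genes. Over all X-linked genes the shares were 52.0% in M1[wt] males, 53.7% in wt males and 46.1% in both. The strongest in M1[wt] males were at sw, a dynein intermediate chain gene (1430), 212 bases from sta, a ribosomal protein gene (1019), and 266 bases from oc, the homeobox gene of the ocelli (515). In wt males they were beside sta (839) and oc (198) and at g, an adaptor subunit gene of pigment granules (95.8). Peaks in M1[wt] males alone lay at Myc (35.6), B-H2 (19.1) and car (391), and in wt males alone at cv (43.8), fu (36.4), r (12.4) and m (8.37). The gene m, a zona pellucida domain gene like dy, lies next to it, and both had a weak peak in wt males and none in M1[wt] males. Another of this family, pot, likewise had a peak in wt males alone (9.34). It is named because it completes the pair of X-linked genes in the list of cuticle and wing cell form genes, after its values were seen. The autosomal dyl, dpy and pio of that list had no peak in either list. The wt peaks at dy, pot and m were among the weakest, ranks 3349, 3577 and 3734 of the 3799 of their list. Whether such genes share a pattern was not tested.

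Genes that act with the markers were grouped by role. All 3 other X-linked Notch pathway genes looked up had a peak in both lists, as did 46.1% of all X-linked genes. These are sno (772 in M1[wt] males and 7171 in wt males, at different peaks), pcx (42.5 and 302, at different peaks) and, within 272 bases, amx (106 and 171). Of 12 autosomal Notch pathway genes, 6 had a peak in M1[wt] males and 8 in wt males, where 24.1% and 22.3% of all autosomal genes had one. Su(H), the transcription factor of the pathway, was strongest in M1[wt] males (59.2), and the Notch target E(spl)m8-HLH in wt males (60.9). At E(spl)m8-HLH the wt summit lay 766 bases outside the gene, and M1[wt] males had no summit within 1000 bases. The nearest M1[wt] summit lay 1528 bases away, so a wider window would count it and the difference depends on the window. A peak was listed at neur in M1[wt] males alone (27.2), and at fng (16.9) and mib1 (10.1) in wt males alone. The list was not tested against other autosomal genes, and gene length was not matched.

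Some of the partners of sd and Bx had a peak. Of 7 autosomal wing selectors and cofactors, 3 had a peak in M1[wt] males and 2 in wt males. The shares over all autosomal genes, 24.1% in M1[wt] males and 22.3% in wt males, apply to this and the following autosomal lists, none of which was tested or matched for gene length. The gene ap, whose product Bx restrains, had 368 in M1[wt] males and 81.8 in wt males, yki, the growth-control partner of sd, had 13.9 in M1[wt] males and, at another peak, 129 in wt males, and salm had a weak peak in M1[wt] males alone (12.5), while vg and Chi had none. On the X, bi had 229 in M1[wt] males and 50.3 in wt males. Of 6 autosomal genes of bristle actin and form, 3 had a peak in M1[wt] males and 2 in wt males, with mwh the strongest (189 and 181) and ck in M1[wt] males alone (20.5). Among 4 autosomal cuticle genes dsx, a sex differentiation factor, had 291 in M1[wt] males and 248 in wt males and the others had none. None of the 10 autosomal pigment genes looked up, the enzyme genes ple, Ddc, e and b among them, had a peak in either list. The X-linked t, an enzyme gene of body colour, had one in both (69.6 in M1[wt] males and 45.8 in wt males). The X-linked relatives of lz, run, RunxA and RunxB, had none in either list, and all 3 lay at least 13864 bases from a summit in M1[wt] males and 13871 in wt males. Of the 4 autosomal genes listed with them, onecut, Bro, toy and Bgb, a peak was found in both lists at toy, a Pax6 gene (256 in M1[wt] males and 22.8 in wt males) and at Bgb, which encodes a partner of Runx factors (142 in M1[wt] males and 33.3 in wt males).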

How the data were processed

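MSL2 was immunoprecipitated from crosslinked chromatin of whole adult males, per the labels' protocols. Tools listed in the submitters' processing notes, without roles, are MACS2, Bowtie2, cutadapt, deepTools and Picard, with the builds dm6 and dm3. The deposited lists have 20 columns and no header. From layout and values, they hold the authors' −log10 p per peak and per call, −log10 of the local and global IDR (lowest global value 1.30, a rate of 0.05), a score scaled from it, and summit offsets. The authors' strength is the lower of the calls in all 3944 and 3799 rows. The sources used here do not state the caller settings, the depth or what the calls are.

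Sequence names match dm6, the build of the NCBI RefSeq gene table (Release 6) that gave symbols and positions. All 10 genes matched by symbol. Coordinates are 1-based. Summits were placed with Python 3.11.15 and pandas 2.3.3, in code tested on simulated data, and ranks run over whole lists or X peaks. No test between the lists was made: each has 1 listed sample. The exact intervals (95%) would cover counting error only for genes drawn at random and independent of each other. The 10 genes were picked by name and are not independent. Distances along the transcribed strand and searches for GA-rich letters, as planned, need strand and a genome sequence, not used here. The genes and lists were chosen with earlier results of these data known. All 10 genes are named, and of other lists the strongest members and those with a peak in 1 list. The names os and Dl, which matched no single gene, and tan, another name of t, were left out.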

Additional observations from a re-analysis of the deposited data

How the results depend on the processing

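The counts of marker genes with a peak (7 in M1[wt] males, 8 in wt males, 6 in both) were the same with summits inside the gene only, within 500 bases, or with any overlap of the interval. With only peaks at or above the median strength of their list's X peaks they were 5 in M1[wt] males, 4 in wt males and 3 in both. At a global IDR of 0.001 or less they were 5 in M1[wt] males and 5 in wt males, and at 0.01 or less 7 and 6, without lz and dy. A window of 2000 bases gave 8 and 8, and one of 5000 bases 8 and 9. The share of X-linked genes with a peak moved with these settings too. For summits inside the gene it was 37.3% in M1[wt] males and 39.0% in wt males, and within 5000 bases 70.1% and 69.7%. With only peaks at or above the median strength it was 33.5% in M1[wt] males, 35.6% in wt males and 28.4% in both. At a global IDR of 0.001 or less it was 36.3% in M1[wt] males and 35.6% in wt males, and at 0.01 or less 47.1% and 48.2%. What moved each count, beyond the change of setting itself, was not tested. Within 200 bases of the marker gene's start or end lay 1 summit in M1[wt] males and 1 in wt males. All 11 shared peaks of each list stayed shared under the other definitions of overlap tried (summits within 100 or 250 bases, or a larger overlap of the intervals). Of 30 values of a gene's strongest peak taken from a single call, 28 were within 1.5 times the lower value, and the exceptions are N (95.6) and sd (39.1) in the first wt call. No replicate could be left out, since each group has 1 listed sample, and weak peaks near the lowest strength of a list are limited by a depth that is unknown.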
